A study of Caenorhabditis elegans with 4 samples.

Results

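Of the 13626 peaks that the list for the whole series places on chromosomes I to V, 4144 (30.4%, exact 95% interval 29.6 to 31.2) shared not a single base with a peak of either MRG-1 replicate. These unmatched peaks were selected on the measured positions of the 3 deposited peak lists, so their number and their lack of overlap are a description and not a finding. The whole list held 14483 peaks, and 5956 of the autosomal ones were matched by both replicates and 3526 by 1 replicate. The lists come from ChIP-seq, in which DNA bound by a protein is precipitated with an antibody and sequenced. There were 2 MRG-1 ChIP libraries (replicates 1 and 2), made with antibody SDQ3927, and 2 control libraries of input DNA, whose values were not analysed here. All came from wild-type N2 early embryos at 20 °C, of a population labelled as mixed in sex, so whole embryos with all their cell types were pooled in each library. The labels do not say whether the replicates were separate cultures, and differences between them may be technical.

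MRG-1 is the worm relative of the chromodomain protein MRG15, a family that recognises methylated lysine 36 of histone H3 on the bodies of transcribed genes. It is loaded into the egg by the mother and is needed for the germ line. In *C. elegans* the central part of an autosome is rich in essential and broadly expressed genes, whereas the arms are rich in repeats and recombine more. Peaks are given by position in WormBase WS220 coordinates, counted from 1. No gene annotation or genome sequence of that build was used here, so no peak is assigned to a gene.

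The replicate lists held 3004 autosomal peaks with a median width of 2434 bp in replicate 1 and 2627 with 2665 bp in replicate 2, and no peak in them was narrower than 634 bp. The series-wide list had a median of 334 bp and a minimum of 146 bp on the autosomes. The lowest score was 50 in each replicate list and 1.3 in the series-wide list, and whether these scores share a scale was not tested. Read depth is unknown for all 3 lists, and intervals cover counting error only. Scores are the authors' and no header defines them, so they are used as a rank percentile within the nuclear series-wide list, where 100 is the highest score. No test was run over peaks, because the rule that chose the unmatched peaks rests on the same lists and neighbouring peaks are not independent. Where position is described, it is set beside the placement mean: the exact average over every position that a peak of the same width could take on its chromosome without touching a replicate peak, which equals the average over all circular shifts that leave the peak unmatched. Spread is given over the 5 autosomes, which are not replicates.

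Most unmatched peaks were narrow and low in the ranking. Their median width was 227 bp (95% interval of the median 224 to 231), against 576 bp (561 to 594) for peaks matched by both replicates, and peaks matched by 1 replicate lay between at 318 bp. Of the unmatched peaks, 37.0% were under 200 bp wide and 5.84% reached 500 bp, against 9.30% and 56.4% of those matched by both. They held 1.20 Mb, or 14.0% of the bases of the autosomal series-wide peaks, against 5.80 Mb and 67.8%. Narrow peaks meet a replicate peak less easily, so this difference in width is partly built into the rule.

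The median score rank percentile was 31.8 (30.8 to 33.7) for the unmatched peaks and 69.2 (67.9 to 70.4) for peaks matched by both replicates. Peaks matched by 1 replicate lay between, at 43.0 (41.3 to 44.4). The share of unmatched peaks among autosomal peaks was 49.6% in the lowest 10% of the score ranking, 37.1% between the 40th and the 50th percentile and 2.18% in the top 10%. The ranking was therefore graded rather than split, and 287 unmatched peaks (6.93%) still lay in the top 25% of scores. Width and rank are linked, and at equal width the groups came closer. Among peaks under 200 bp the median rank was 23.6 for unmatched peaks and 24.9 for peaks matched by both. Among peaks of 300 up to 500 bp it was 42.3 against 57.4, and from 1000 bp upward 82.7 against 91.4. Peaks matched by 1 replicate had medians of 23.6, 50.0 and 82.8 in these width classes. From 200 up to 300 bp the median was 33.7 for unmatched peaks and 34.9 for those matched by 1 replicate. From 500 up to 1000 bp it was 60.3 and 58.2. Across peaks, width and rank had a Spearman's rho of 0.35 for the unmatched peaks and 0.75 for those matched by both, as a description over 4144 and 5956 peaks that are not independent.

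**Figure D1:**
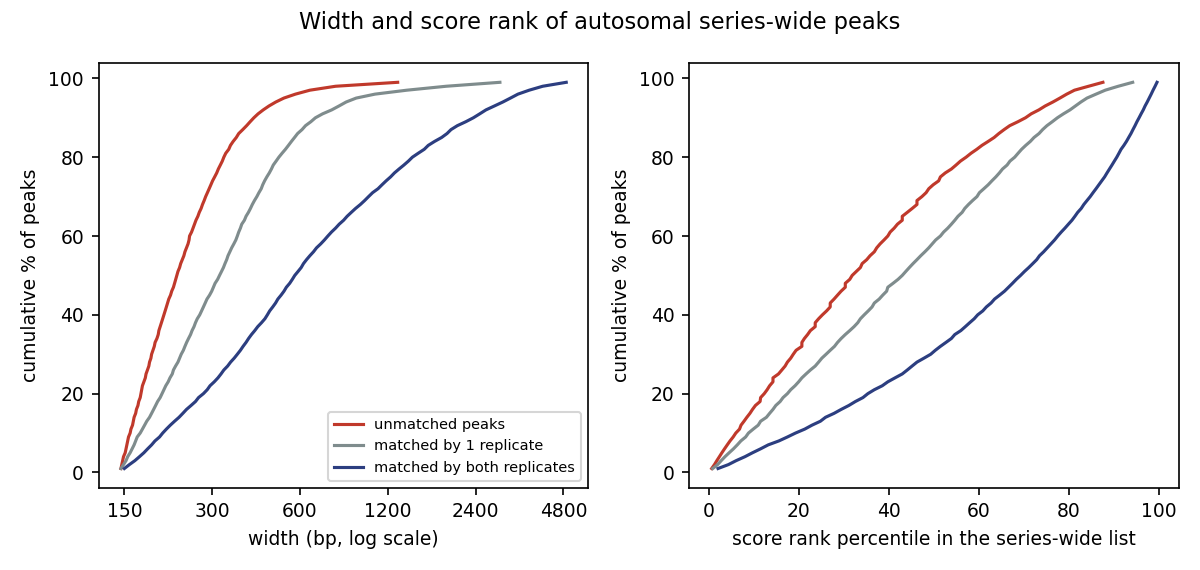
Cumulative share of autosomal series-wide peaks by width (left, bp, log scale) and by score rank percentile in the series-wide list (right), drawn from the 1st to the 99th percentile of each group. The curve of the 4144 unmatched peaks lies to the left of both others in each panel, with medians of 227 bp and 31.8, and that of the 5956 peaks matched by both replicates to the right, at 576 bp and 69.2.

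All 5 autosomes carried unmatched peaks of nearly the same width and rank. Chromosome I had 1163, III had 939, IV had 833, II had 657 and V had 552. Their share of the series-wide peaks ran from 27.6% on II to 33.8% on IV (30.3% ± 3.04, SD over 5 autosomes). The median width was between 224 and 230 bp on every autosome, and the median rank percentile was 32.3 ± 1.59 (SD over 5 autosomes). Their density differed more: per Mb of sequence outside replicate peaks there were 94.6 on I, 86.2 on III, 53.9 on IV, 50.1 on II and 28.7 on V. Within 80 windows of 1 Mb the number of unmatched peaks ran from 10 to 103, with a median of 48.5. The fullest windows were on chromosome I from 3 to 4 Mb with 103 and from 6 to 7 Mb with 97, followed by I from 5 to 6 Mb and IV from 1 to 2 Mb with 93 each. The emptiest 3 were on V, from 16 to 17 Mb with 10 and from 3 to 4 Mb and 5 to 6 Mb with 16 each. Across the windows, the density of unmatched peaks outside replicate peaks went with the share of the window inside replicate peaks (Spearman's rho 0.75, Pearson's r 0.72). These points share libraries and neighbouring windows, so the correlation is given as a description.

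Unmatched peaks gathered near replicate peaks. The median distance to the nearest replicate peak was 2662 bp, with quartiles of 817 and 8253 bp. Within 1 kb lay 1218 of them (29.4%, 28.0 to 30.8), against a placement mean of 8.04%, a ratio of 3.66. Beyond 10 kb lay 878 (21.2%, 20.0 to 22.5), against 51.4%, a ratio of 0.412. The remaining 2048 lay between these distances. The flanking share exceeded its placement mean on 5 of 5 autosomes, from 3.12 times on III to 5.47 times on V. The excess did not peak at the edge itself: the ratio was 2.54 within 100 bp, 4.59 between 250 and 500 bp, 2.17 between 1 and 2 kb, 1.33 between 2 and 5 kb and 0.290 beyond 50 kb. Against the share of single bases outside other series-wide peaks, in place of placements, the ratio was 2.42 within 100 bp and 3.56 within 1 kb. That share also counts stretches too short to hold a peak. It therefore cannot show how far peaks that reach past a replicate edge lower the ratio there, which was not tested.

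**Figure D2:**
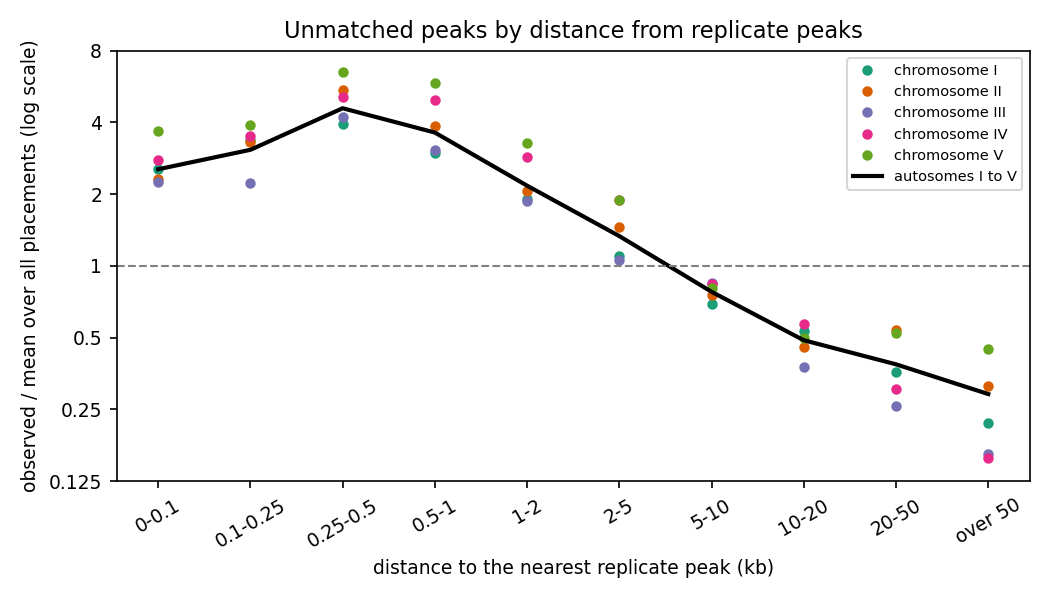
Ratio of the share of unmatched peaks to the placement mean (log scale) in classes of distance to the nearest replicate peak (kb). The black line joins the values for the 5 autosomes together, coloured points are single autosomes and the dashed line marks a ratio of 1. The line is highest at 4.59 between 250 and 500 bp, is below 1 from 5 kb on and falls to 0.290 beyond 50 kb, and the points of all 5 autosomes cross 1 in the same stretch.

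Each replicate list alone gave a similar picture of distance. The median distance to the nearest replicate 1 peak was 3528 bp and that to the nearest replicate 2 peak was 4389 bp, and 57.1% of the unmatched peaks were nearer to a replicate 1 peak. When replicate 1 and replicate 2 peaks were merged where they overlap, they formed 3259 autosomal domains, of which 2014 held peaks of both lists, 798 of replicate 1 only and 447 of replicate 2 only. Each unmatched peak within 1 kb was credited to its nearest domain only. Counted in this way, 999 domains (30.7%) had such a flanking peak, and 117 had them on both sides. A domain within 1 kb of an unmatched peak that lay nearer to another domain was not credited with it. The share of domains with such a flank was 31.5% (29.5 to 33.6) for domains of both lists, 29.3% (26.2 to 32.6) for replicate 1 only and 29.1% (24.9 to 33.5) for replicate 2 only, so the intervals overlapped. By domain width it was 27.2% (24.1 to 30.5) under 1500 bp, 33.3% (30.5 to 36.2) from 1500 bp, 31.0% (27.5 to 34.5) from 3000 bp and 29.9% (26.5 to 33.5) at 5000 bp or more. The interval of the narrowest class lay just below that of the next and overlapped those of both wider classes. No domain was credited with more than 4 flanking unmatched peaks.

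Unmatched peaks far from replicate peaks ranked higher than those close to them. The median rank percentile was 31.3 (30.3 to 33.7) within 1 kb, 29.7 (28.1 to 31.1) from 1 to 10 kb and 39.7 (37.5 to 43.0) beyond 10 kb. Median widths were close, at 220.0, 228 and 236.5 bp. Within the class of 200 up to 300 bp the ranks were 32.7, 28.4 and 43.0, and under 200 bp they were 23.6, 22.7 and 26.0. In wider peaks the class from 1 to 10 kb ranked highest: the medians were 46.2, 63.5 and 62.3 from 500 up to 1000 bp, and 70.0, 85.5 and 79.3 at 1000 bp or more, where 4, 39 and 17 peaks fell in the 3 distance classes. Beyond 10 kb the median was above that within 1 kb on 5 of 5 autosomes, with the closest values on IV (39.2 against 37.6) and the widest apart on II (42.2 against 28.1). The top 25% of scores held 0% of the 266 unmatched peaks within 250 bp of a replicate peak and 16.3% of the 104 beyond 50 kb. Across single peaks the relation was weak, with a Spearman's rho of 0.10. A wide peak close to a replicate peak meets it more easily and then counts as matched, and width and rank are linked. The lower ranks near replicate peaks may therefore be partly built into the rule, which was not tested.

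The merged domains left 3262 gaps on the autosomes, 71.0 Mb in all, and 1698 of them (52.1%) held at least 1 unmatched peak. Short gaps were filled most densely. Gaps under 5 kb made up 2.07 Mb and held 604 unmatched peaks (14.6%), against a placement mean of 2.96%, which is a ratio of 4.93. Per Mb of gap there were 310 unmatched peaks in gaps of 1 to 5 kb, 111 in gaps of 10 to 20 kb, 36.9 in gaps of 50 to 100 kb and 14.7 in gaps of 200 kb or more. Of the 129 gaps of 100 kb or more, 117 (90.7%) held at least 1. Longer gaps have more room for a peak, and no placement value was computed for this share. Together these 129 gaps held 466 (11.2%, 10.3 to 12.2), against a placement mean of 24.5%. That is 22.2 per Mb, against 58.4 per Mb over all gaps. The 19 gaps of 200 kb or more held 91 unmatched peaks, of which 98.9% lay in chromosome arms. How much of these gaps itself lies in arms was not computed, so this share may only describe where the gaps are.

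**Figure D3:**
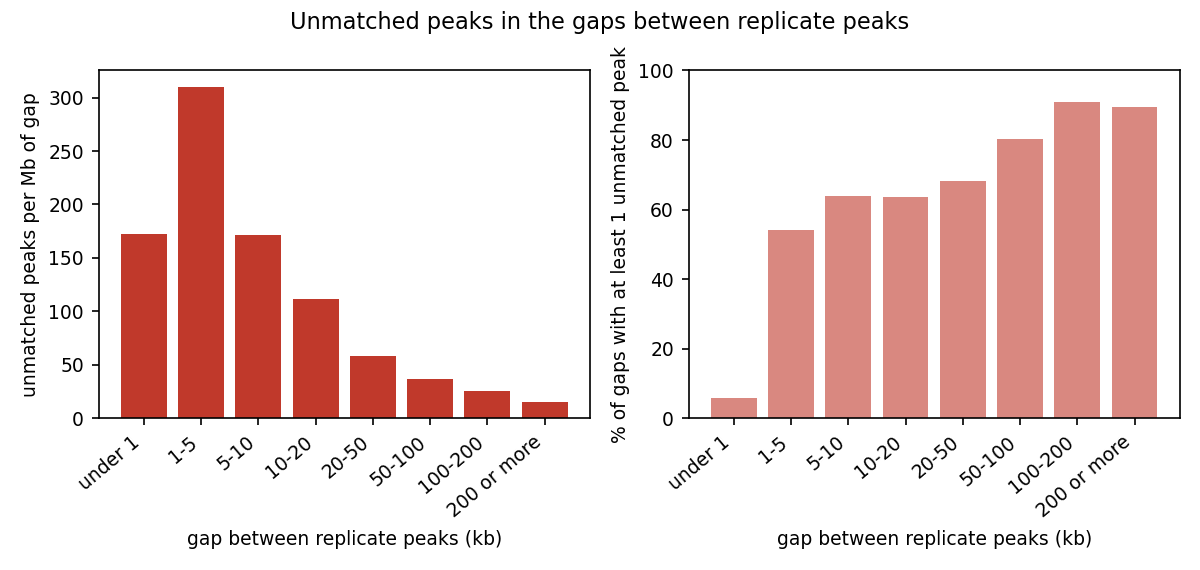
Unmatched peaks per Mb of gap (left) and share of gaps with at least 1 unmatched peak (right), by the length of the gap between neighbouring replicate peaks (kb). Density is highest at 310 per Mb in gaps of 1 to 5 kb and lowest at 14.7 per Mb in gaps of 200 kb or more. Of the gaps of 100 to 200 kb, 90.9% hold at least 1, and longer gaps have more room for a peak.

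The longest gap of each autosome shows how thinly the largest stretches were filled. On chromosome V the gap from 2778977 to 3563419 (784 kb) held 9 unmatched peaks that covered 0.264% of it, and the longest stretch without any series-wide peak in it was 317 kb. On IV the gap from 15648395 to 16381155 (733 kb) held 5 that covered 0.141%, with a free stretch of 336 kb. On I the gap from 11612583 to 11892447 (280 kb) held 13, on II that from 3555136 to 3806993 (252 kb) held 4, and on III that from 647997 to 782124 (134 kb) held 1. Densities in these gaps were 46.5 per Mb on I and between 6.82 and 15.9 per Mb on the other 4. The 5 unmatched peaks farthest from any replicate peak all lay in the gaps on V and IV. The farthest, on V from 3195117 to 3195380, was 368039 bp away and ranked at 73.3, and its nearest series-wide neighbour was 120045 bp away. The next, on IV from 16024200 to 16024421, was 356734 bp away and ranked at 42.4.

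Unmatched peaks did not share the excess in chromosome centres of the peaks matched by both replicates. The arms, taken as the outer 25% of a chromosome on either side, held 2123 of 4144 unmatched peaks (51.2%, 49.7 to 52.8), close to their placement mean of 52.0%, against 34.3% (33.1 to 35.5) of the peaks matched by both replicates. The share in the arms was higher for unmatched peaks on 5 of 5 autosomes, at 51.8% ± 2.97 against 34.2% ± 3.54 (SD over 5 autosomes). Peaks matched by 1 replicate lay between, with 47.0% (45.3 to 48.7) in arms over the autosomes together. For unmatched peaks per Mb outside replicate peaks, arms over centres gave a ratio of 0.807 on I, 1.03 on II, 1.00 on III, 1.04 on IV and 1.14 on V. For peaks matched by both, the ratio was between 0.419 and 0.601, but per Mb of the whole chromosome rather than outside replicate peaks. By the rule these peaks can lie only at replicate peaks, so their split follows that of the replicate lists. The even split rests on both replicate lists together. Of the 6137 autosomal peaks outside replicate 2 peaks, 57.7% lay in the arms against a placement mean of 52.7%, and of the 5677 outside replicate 1 peaks 41.6% against 51.0%. The arm share also went with distance, from 46.4% (43.6 to 49.2) of the unmatched peaks within 1 kb to 52.5% from 1 to 10 kb and 55.0% (51.7 to 58.3) beyond 10 kb. No placement mean for arms was computed within a distance class. Sequence near replicate peaks may itself lie less often in arms, so how far the trend follows from that was not tested. On IV the left arm held 37.2% and the right arm 14.9%, and on II the left held 21.2% and the right 31.1%.

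**Figure D4:**
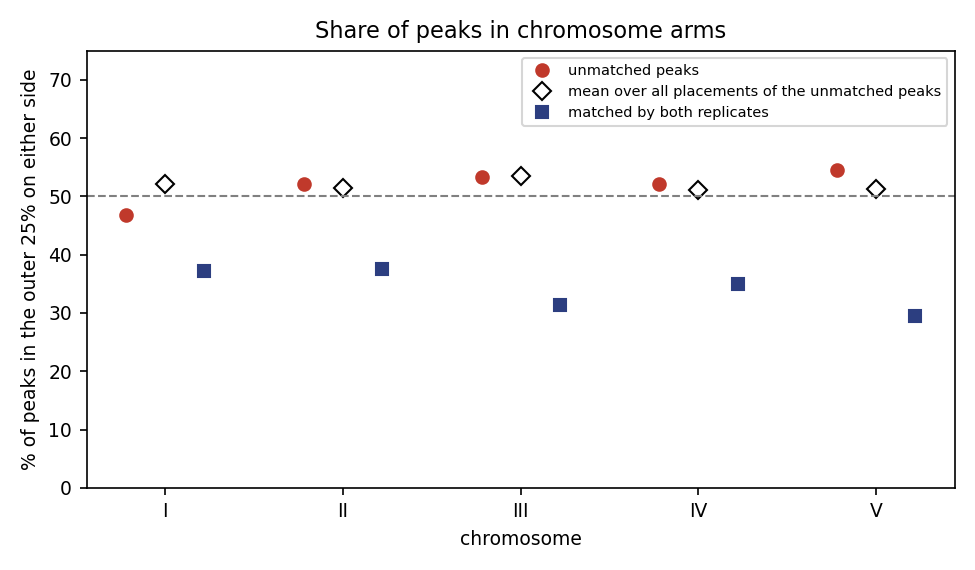
Share of peaks (%) in the outer 25% on either side of each autosome, for unmatched peaks (circles), the mean over all their placements outside replicate peaks (diamonds) and peaks matched by both replicates (squares). The dashed line marks 50%. Unmatched peaks lie between 46.8% on I and 54.5% on V, and peaks matched by both between 29.5% on V and 37.5% on II.

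Unmatched peaks were spaced more widely than matched ones. Another series-wide peak lay within 1 kb of 2098 of them (50.6%, 49.1 to 52.2), against 95.4% of the peaks matched by both replicates and 87.4% of those matched by 1. The median distance to the nearest series-wide peak was 985 bp (median interval 942 to 1032), against 148 bp and 270 bp. Matched peaks lie by the rule at replicate peaks, which are wide enough to hold several series-wide peaks. The contrast may therefore be partly built into the rule, which was not tested, and no placement mean was computed for it. For unmatched peaks, the nearest series-wide peak was itself unmatched in 62.0%. The rule largely sets this share, since it leaves only unmatched peaks in the gaps between replicate peaks. The share with any series-wide peak within 1 kb was 81.6% for unmatched peaks within 1 kb of a replicate peak, 42.4% from 1 to 10 kb and 26.8% beyond 10 kb. Runs were formed of neighbouring unmatched peaks at most 1 kb apart with no other peak between them. Single peaks made up 2613 (63.1%), 894 stood in pairs, 359 in runs of 3 or 4 and 278 (6.71%) in 34 runs of 5 or more.

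The 34 long runs held most of the wide and high-scoring unmatched peaks. They contained 43 of the 60 unmatched peaks of 1000 bp or more and 21 of the 30 in the top 10% of scores, and 16.9% of the unmatched bases. Their peaks had a median width of 385.5 bp and a median rank of 48.1, against 224 bp and 31.8 for the single peaks. Only 18.3% of them lay in arms, against 54.8% of the single peaks. The runs measured 2243 to 23736 bp in length with a median of 4850 bp, and 13 were on I, 10 on III, 5 on IV, 4 on II and 2 on V. Series-wide peaks covered 73.4% of the bases of these runs, against 69.9% in the 1557 replicate domains of both lists in the same length range and 56.8% in the 271 domains of 1 list. The median per run was lower, at 62.0%, against 70.3% per domain of both lists and 47.1% per domain of 1 list. The 12 runs of 10 kb or more hold 183 of the 277 kb and were 74.2% to 89.8% covered, against 31.1% to 79.8% in the shorter 22. The covered share ran from 31.1% to 89.8% over the runs. It ran from 6.42% to 94.4% over the domains of both lists and from 0% to 95.2% over those of 1 list. Ranges this wide would hold almost any run, and by construction a run starts and ends on a peak. No likeness between runs and domains is therefore drawn from these ranges. By the rule, neither replicate list has a peak in these runs. No test was made, because the runs were formed from the peaks themselves and the domains were taken from the same length range.

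**Figure D5:**
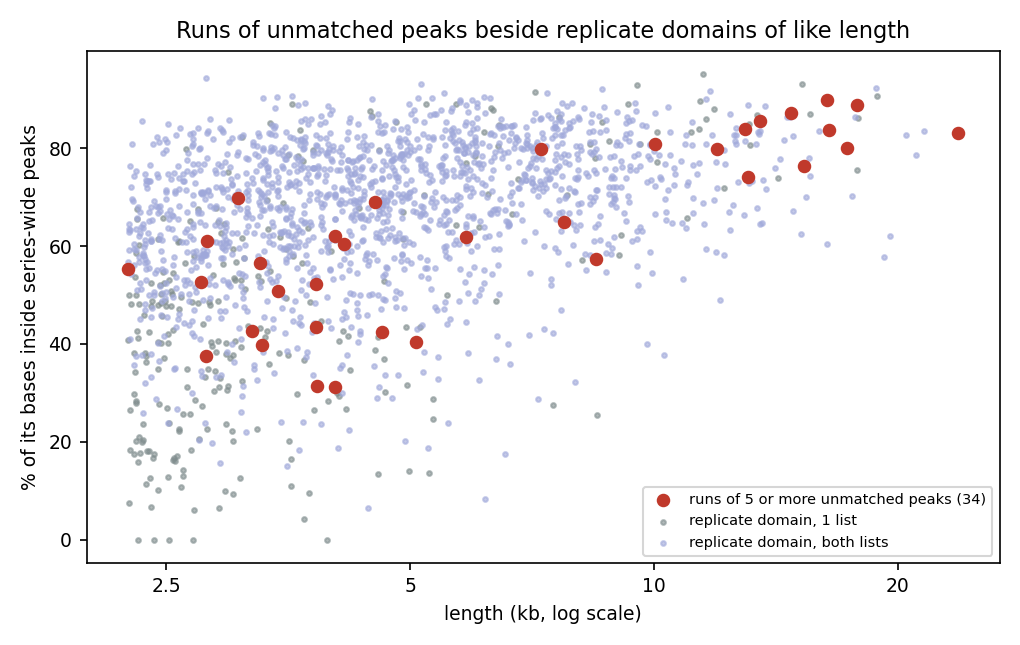
Length (kb, log scale) and share of bases inside series-wide peaks (%) for the 34 runs of 5 or more unmatched peaks (large points) and for merged replicate domains of the same length range from 1 list or from both lists (small points). The 12 runs of 10 kb or more lie between 74.2% and 89.8%, and the shorter runs between 31.1% and 79.8%. The replicate domains spread from 0% to 95.2%.

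Among the 34, 12 runs were 10 kb or longer, 183 kb in total, and 11 of these 12 contained a peak in the top 10% of scores. There were 4 on IV, 3 on I, 3 on III, 2 on II and 0 on V, and 10 of the 12 lay in a chromosome centre. Each run lies in a gap between replicate domains, and the domains at the ends of that gap need not adjoin the run. For the 12, these domains came from 1 list only on 18 of 24 gap sides (75%). The share was 38.2% among all replicate domains and 37.2% among the gap sides of the shorter runs. Each of the 12 had such a domain on at least 1 side of its gap. The run on IV from 4797233 to 4812004 spanned only 11.8% of its gap of 125402 bp. In 5 of the 12 the run, from its first to its last base, spanned over 90% of the gap between the replicate domains.

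The run with the most peaks was on chromosome III from 6428383 to 6443680, where 18 unmatched peaks spanned 96.7% of a gap of 15818 bp between 2 domains of replicate 1, 2853 and 3096 bp wide. The peaks themselves held 11690 bp, or 76.4% of the run. It contains the strongest unmatched peak of III, from 6431038 to 6435190 (4153 bp), with a rank of 98.9. The longest run was on III from 4923140 to 4946875, with 17 peaks over 23736 bp in a gap of 24065 bp, also between domains of replicate 1 only. Among all 3259 replicate domains the widest measured 25934 bp. The third, on III from 6006483 to 6023772, had 13 peaks over 17290 bp and lay alone, 16609 bp from the nearest replicate peak.

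The unmatched peak with the highest score on any autosome was on IV from 4719224 to 4720929 (1706 bp), with a rank of 99.9. It belonged to a run of 9 peaks from 4708065 to 4721577 that spanned 91.4% of its gap and had 85.6% of its bases inside peaks. On II the strongest was from 8927138 to 8930274 (3137 bp, rank 96.2), at the start of a run of 13 that ended at 8939107. On V the strongest was narrow and single, from 8500367 to 8500677 (311 bp, rank 91.3), 15029 bp from a replicate peak. On I it spanned 15033695 to 15037448 (3754 bp, rank 98.9), in a run of 12.

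The widest unmatched peak was also at the right end of chromosome I, from 15060247 to 15071340 (11094 bp, rank 87.5), 1.09 kb before the end of the last peak of any list there. As background, the tandem ribosomal RNA genes of *C. elegans* are at the right end of chromosome I; whether this peak lies in them was not tested. The other 4 of the 5 widest lay in chromosome centres, inside long runs. They were on II from 4944090 to 4951329 (7240 bp, rank 91.7), on III from 4932423 to 4938570 (6148 bp, rank 91.7) and on I from 5173251 to 5178919 (5669 bp, rank 97.4) and from 5163238 to 5168100 (4863 bp, rank 93.5).

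At the border of the rule the peaks on either side were alike. The unmatched peak closest to a replicate peak touched it without overlap, on III from 13688054 to 13688249 (196 bp, rank 5.90). The matched peak with the smallest overlap, on V from 6451882 to 6452198 (317 bp, rank 2.16), had 2 bp inside a replicate peak. The 49 unmatched peaks at most 50 bp from a replicate peak had a median width of 188 bp and a median rank of 27.8, and the 41 matched peaks with at most 50 bp inside replicate peaks had 204 bp and 28.1.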

How the data were processed

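Embryos were fixed in 1.85% formaldehyde for 30 min, and ChIP chromatin was sonicated in 14 rounds and input chromatin in 9, per the labels' protocols. The deposited lists give a peak score whose definition no header states; replicate lists name MACS and the series-wide list MACS v2 as source, and the build is WormBase WS220, per the file headers. BWA and ce10 appear in the submitters' processing notes without role or version. For the settings, the control of each call and how replicates were combined, the entry is not given in the sources used here.

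Lists were used as deposited, autosomes only, with an overlap of 1 bp as a match. Scores were ranked over the 14479 nuclear series-wide peaks. The last peak end in any list served as the end of a chromosome. Distance is the number of free bases between peaks. The placement mean was enumerated exactly and was tested on simulated data. Intervals are exact binomial for shares and order-statistic for medians, at 95%. The regions and groups described were chosen with earlier results of these data known. Regions were named by a rule: the highest score per autosome, the 5 widest, the 5 farthest, the 3 fullest runs, the extreme windows, the longest gap per autosome and the peaks at the border of the rule. The runs of 5 or more and of 10 kb or more and their members were singled out after values were seen. No column of another series was found. Overlaps and intervals used scipy 1.17.1, pandas 2.3.3 and numpy 2.4.6 under Python 3.11.15, and plots matplotlib 3.10.9.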

Additional observations from a re-analysis of the deposited data

How the results depend on the processing

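Of 58 alternative values, 38 moved. The number of unmatched peaks was 6137 outside replicate 2 and 5677 outside replicate 1 alone, 4237 with peaks less than 50% covered, 3490 with widened replicate peaks and 3866 without the long runs, against 4144. Over the 7 alternatives with a placement mean, the ratio to it ran from 2.99 to 4.15 within 1 kb, from 0.358 to 0.564 beyond 10 kb and from 0.380 to 0.586 in gaps of 100 kb or more, while for arms it crossed 1, from 0.815 to 1.09. With only 1 replicate list used at a time, the share within 1 kb was 24.7% to 28.1%, beyond 10 kb 24.8% to 27.3%, in arms 41.6% to 57.7%, with a series-wide neighbour 61.2% to 62.0% and in long gaps 14.0% to 16.6%, with median widths of 244 to 247 bp and ranks of 34.6 to 35.4. When peaks less than 50% covered also counted as unmatched, 30.9% lay within 1 kb, with the distance of overlapping peaks set to 0. With replicate peaks widened by 500 bp, 16.2% lay within 1 kb, 25.2% beyond 10 kb, 42.3% had a neighbour and 12.7% lay in long gaps. Those distances run from the unwidened edges, so peaks closer than 500 bp drop out by definition. In the top 50% of scores 1114 peaks were unmatched, of which 25.5% lay within 1 kb, 29.5% beyond 10 kb, 29.1% had a neighbour and 15.1% lay in long gaps, with medians of 285 bp and 65.2. A limit of 500 bp or 2 kb in place of 1 kb gave 15.8% and 43.6% near replicate peaks and 28.7% and 70.3% with a neighbour. A limit of 5 or 20 kb in place of 10 kb gave 35.5% and 10.7%. With the centre as the middle 40% or 60%, arms held 60.9% and 40.4%. Gaps of 50 kb or 200 kb and more held 27.5% and 2.20%. Without the runs of 5 or more, an alternative chosen after seeing the data, arms held 53.6%, 47.1% had a neighbour and the median width was 223 bp. No paired analysis was possible because no values were analysed here for input DNA, the other group with these replicate numbers. Depth, the meaning of the score and the way of calling the series-wide list are unknown, so whether unmatched peaks are binding sites was not tested.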
